A study of Mus musculus with 6 samples.

Results

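The miR-21 small RNAs are the mature products of the mouse Mir21a gene, mmu-miR-21a-5p and mmu-miR-21a-3p, and of a gene copy, mmu-miR-21c. The first 15 bases of miR-21c are those of miR-21a-5p. The 3 rows were taken by name from small RNA count tables that list 2334 names, 1836 microRNAs (miRNAs) and 498 tRNA-derived small RNAs (tsRNAs). The group was chosen by the difference of miR-21a-5p between laser-treated and untreated eyes in an earlier analysis of the same libraries, so its values in that comparison are given as a description with no test. The other arm and the copy were added by name. The tissue, from male mice aged 7 to 8 weeks, was labelled as RPE-choroid-sclera, the retinal pigment epithelium (RPE) with the vascular and fibrous coats behind it. In the group called CNV (choroidal neovascularization), 25 laser burns were placed in each eye (532 nm, 100 mW, 0.1 s, 50 µm) and eyes were removed 7 days later. The control group was of the same age and had no laser. Each group has 3 libraries, each from the pooled tissue of 4 eyes, and the strain is not given in the labels used here. Nothing in the labels says whether pools came from different mice, so the spread between libraries may be partly technical.

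A miRNA gene is transcribed into a hairpin, which is cut so that either of its arms can become a mature miRNA. For most genes a guide arm is loaded into the silencing complex and the partner arm is degraded. The guide finds its target messages mainly through its seed, the bases near its start. The 5p arm of miR-21 is the guide. It is induced in many injured, inflamed or scarring tissues by transcription factors such as AP-1 and STAT3, and its known targets include Pdcd4, a translation inhibitor, and Spry1, an inhibitor of growth factor signalling. Messenger RNAs were not analysed here.

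The RefSeq mature miRNAs of build GRCm38.p6 were searched with the entries of 1 chromosome left out. A name with no match may therefore still be in RefSeq. All 3 members had an entry in the searched set, as had 1560 of the 1836 miRNA names. Their sequences are shown to make clear which reads could be counted under more than 1 name, with miR-21b, a further copy, beside them. They run 5′ to 3′ and capitals mark the seed, bases 2 to 8.
mmu-miR-21a-5p: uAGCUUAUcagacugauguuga
mmu-miR-21c: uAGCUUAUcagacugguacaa
mmu-miR-21b: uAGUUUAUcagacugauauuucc
mmu-miR-21a-3p: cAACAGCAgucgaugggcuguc
Among the 1679 mature names searched, miR-21c alone shared the seed of miR-21a-5p, and both would pair with the target letters AUAAGCUA. The seeds of miR-21b and of miR-21a-3p were shared by no other name searched. miRNAs outside the searched set were not compared, so further ones may share these seeds. Counted from the 5′ end, miR-21a-5p and miR-21c were the same over their first 15 bases and differed after that by A16G, G18A, U19C, U20A and G21A, with the miR-21a-5p base first. Against miR-21b, miR-21a-5p differed by C4U, G18A, G21U and A22C. The longest run shared by miR-21b and miR-21c was 11 bases. Inserts of 14 to 40 nt were selected for sequencing, so a read holding only the first 15 bases of miR-21a-5p would match miR-21c as well. The sources used here do not say how such reads were assigned or how many mismatches were allowed.

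The hairpin of miR-21a lies at chr11:86584067-86584158 on the minus strand of GRCm38. It falls within exon 12 of Vmp1, a gene for a membrane protein of autophagy, in the part annotated as UTR of transcript Vmp1-201 and on the same strand. The 5p arm starts at base 18 and the 3p arm at base 56 of the 92-base hairpin. The miR-21c gene lies at chr8:128278148-128278225 on the minus strand, and no other annotated gene overlaps it. The miR-21b gene lies at chr3:29636744-29636851 on the plus strand, within the gene Egfem1 and outside its exons.

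Total counts ran from 5057142 to 12839386 per library, the highest in control replicate 2. Levels are in CPM, counts scaled to a common library size with edgeR's TMM factors, and fold changes and standard errors (SE) come from edgeR's quasi-likelihood fit over the 997 small RNAs with enough reads, all 3 members among them. The miRNA lists defined below served as a check of the tissue. RPE and endothelial miRNAs were present in every library, with the 4 RPE and pigment cell miRNAs summing to 6838 to 7039 CPM in control and 4571 to 6543 in CNV. Photoreceptor miRNAs were also abundant, with 49357 to 75808 CPM in control and 24742 to 49487 in CNV for 4 miRNAs, although the label does not name the neural retina. Skeletal muscle miRNAs summed to 34815 to 92030 CPM in control and 58088 to 91972 in CNV over 4 members. The label does not name muscle either.

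The guide arm miR-21a-5p was higher in the lasered eyes. Its level was 16933, 9738 and 11158 CPM in control replicates 1 to 3, from 98195, 135510 and 54668 reads. In CNV replicates 1 to 3 it was 45345, 50443 and 38214 CPM, from 233147, 253539 and 222333 reads. The groups lay well apart, since the lowest CNV library was 2.26 times the highest control library. The means were 12609.6 ± 3811 CPM in control and 44667 ± 6143 in CNV (SD, n = 3 in each group), a 3.54-fold difference (log2 1.82, SE 0.23). The control libraries spread over a 1.74-fold range, set by the high level in replicate 1, and the CNV libraries over a 1.32-fold range. At these counts reading error was small beside that spread, with a 95% Poisson interval of 11065 to 11252 CPM for control replicate 3, the library with the fewest reads. Intervals cover counting error only. In bulk tissue, more cells that make a miRNA and more of it per cell cannot be told apart.

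The share of all miRNA reads taken by miR-21a-5p was 2.01%, 1.11% and 1.14% in the control libraries and 4.39%, 5.33% and 4.2% in the CNV libraries. By read count it stood at places 15, 24 and 22 among miRNAs in control and at places 5, 4 and 9 in CNV. In CPM its difference of 32058 was the largest of the 541 miRNAs tested, ahead of 11858 for let-7i-5p, an abundant let-7 family member. When library totals and factors were computed without the miR-21 rows, the log2 fold change of miR-21a-5p was 1.75 (SE 0.25).

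**Figure D1:**
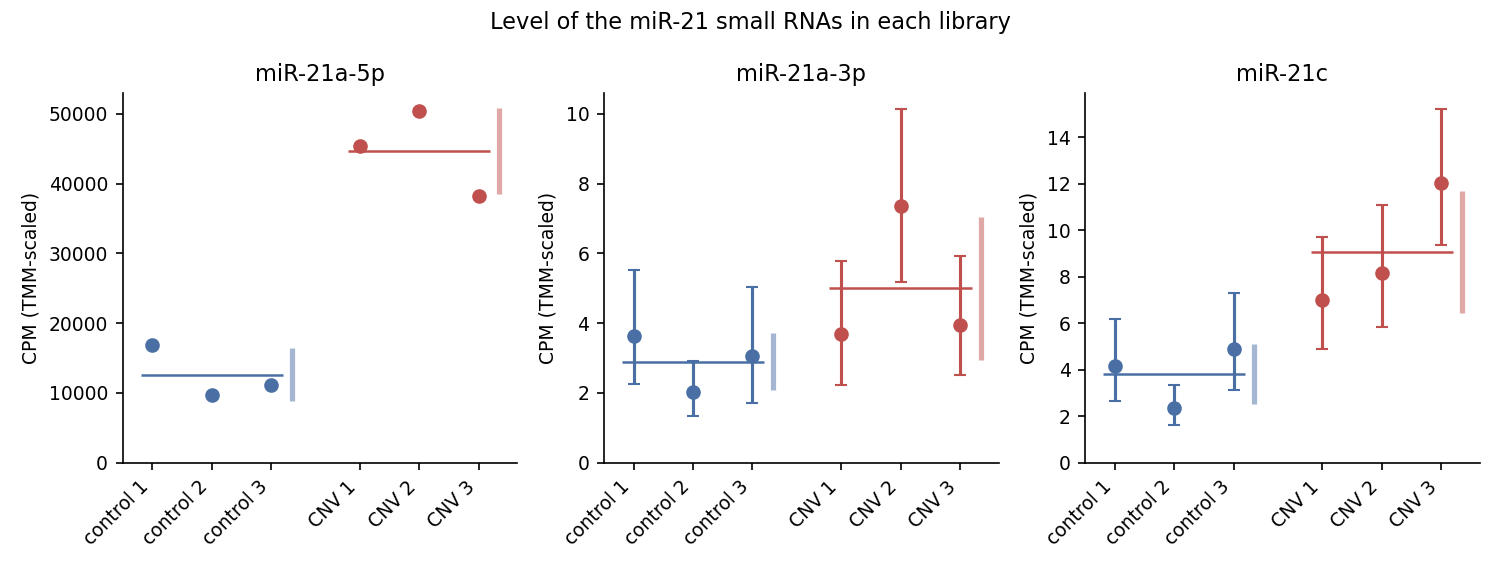
Levels of miR-21a-5p, miR-21a-3p and miR-21c in each library, in TMM-scaled CPM on linear axes that start at 0. Points are libraries with 95% Poisson intervals (hidden by the points for miR-21a-5p), horizontal lines are group means and the thick bars beside them ± 1 SD (n = 3). The 5p arm lies at 9738 to 50443 CPM with separate groups, while for the 3p arm control replicate 1 (3.62 CPM) and CNV replicate 1 (3.70 CPM) almost touch.

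The passenger arm miR-21a-3p was rare and differed less. It had 21, 28 and 15 reads in control replicates 1 to 3, or 3.62, 2.01 and 3.06 CPM. In CNV replicates 1 to 3 it had 19, 37 and 23 reads, or 3.70, 7.36 and 3.95 CPM. Only CNV replicate 2 stood clear of the control libraries, and the other CNV libraries lay close above control replicate 1. The group means were 2.90 ± 0.817 and 5.0 ± 2.05 CPM (SD, n = 3), a 1.79-fold difference (log2 0.84, SE 0.37). The groups did not overlap in TMM-scaled CPM, but they did when only total counts were used for scaling, where control replicate 1 was at 4.02 and CNV replicate 1 at 3.26. Without CNV replicate 2 the difference was 1.33-fold. The 95% Poisson intervals of control replicate 1 (2.24 to 5.54 CPM) and CNV replicate 1 (2.22 to 5.77 CPM) cover nearly the same range.

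The copy miR-21c was also rare, with more reads than the 3p arm in every library, and was higher in CNV. It had 24, 33 and 24 reads in control replicates 1 to 3, or 4.14, 2.37 and 4.90 CPM. In CNV replicates 1 to 3 it had 36, 41 and 70 reads, or 7.00, 8.16 and 12.0 CPM. Every CNV library lay above every control library, also when only total counts were used for scaling. The means were 3.8 ± 1.30 and 9.06 ± 2.63 CPM (SD, n = 3), a 2.5-fold difference (log2 1.32, SE 0.34).

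So all 3 members were higher in each CNV library than in any control library in TMM-scaled CPM. The same held for 114 of the 997 small RNAs tested (11.4%). Of the 997, 3 were called by edgeR at an adjusted p under 0.05 (0.301%), with miR-21a-5p among them and neither of the rare members. With DESeq2, with no filter on low counts or with a replicate block, miR-21c was called too. The choice of members used this comparison, so nothing is read from these counts. Of the 541 miRNAs, 1 had a larger log2 fold change than miR-21a-5p, 4 a larger one than miR-21c and 22 a larger one than miR-21a-3p. Among the CNV libraries the 3 members had different orders. The 5p arm was highest in replicate 2 and lowest in replicate 3, the 3p arm was highest in replicate 2 and lowest in replicate 1, and miR-21c was highest in replicate 3 and lowest in replicate 1.

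The arms were further out of balance in CNV, on the 5p side. A ratio of counts within a library does not depend on how libraries are scaled. There were 4676, 4840 and 3645 reads of miR-21a-5p for each read of miR-21a-3p in control replicates 1 to 3. In CNV replicates 1 to 3 there were 12271, 6852 and 9667. The CNV libraries all lay above the control libraries, with replicate 2, where the 3p arm was most abundant, closest to them. The mean ratio was 4387 ± 648 in control and 9597 ± 2710 in CNV (SD, n = 3). On the log2 scale the difference was 1.11 (SE 0.26, limma over all precursors), or 2.15-fold. With reads summed over the libraries of a group, the 3p arm made up 64 of 288437 reads of both arms in control (0.0222%, 95% exact binomial interval 0.0171% to 0.0283%). In CNV it made up 79 of 709098 (0.0111%, 0.00882% to 0.0139%). These 2 intervals cover counting error only and leave out the spread between libraries, so they do not compare the groups. For individual libraries the few 3p reads leave wide intervals, such as 3059 to 7554 for control replicate 1 and 4971 to 9732 for CNV replicate 2, which overlap.

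The other miRNA genes are given for scale only, since the difference of miR-21a-5p, by which the group was chosen, is part of this ratio. Of 156 precursors with both arms kept by the count filter, miR-21a had the third most uneven arms, after let-7g and miR-101a. Its difference in log2 ratio was the largest positive one of the 156, where the median size of a difference was 0.23. The next largest were 0.97 for miR-466c and 0.90 for let-7i. The only larger difference in either direction was that of miR-101a (-1.25), whose rare arm had as few as 1 read in a library. When a library other than control replicate 2 was left out, 1 other precursor had a larger positive difference than miR-21a. All CNV libraries lay above all control libraries for 13 of the 156 precursors (8.33%), and by limma with Benjamini-Hochberg adjustment no precursor was called (0 of 156, 0%). At an unadjusted p under 0.05 there were 18. The miR-10a precursor, whose 5p arm was the nearest to miR-21a-5p in its profile, differed in the other direction, with a log2 ratio of 7.05 in control and 6.42 in CNV. For miR-146b, an inflammation-induced miRNA, the ratio was 7.75 and 8.01.

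**Figure D2:**
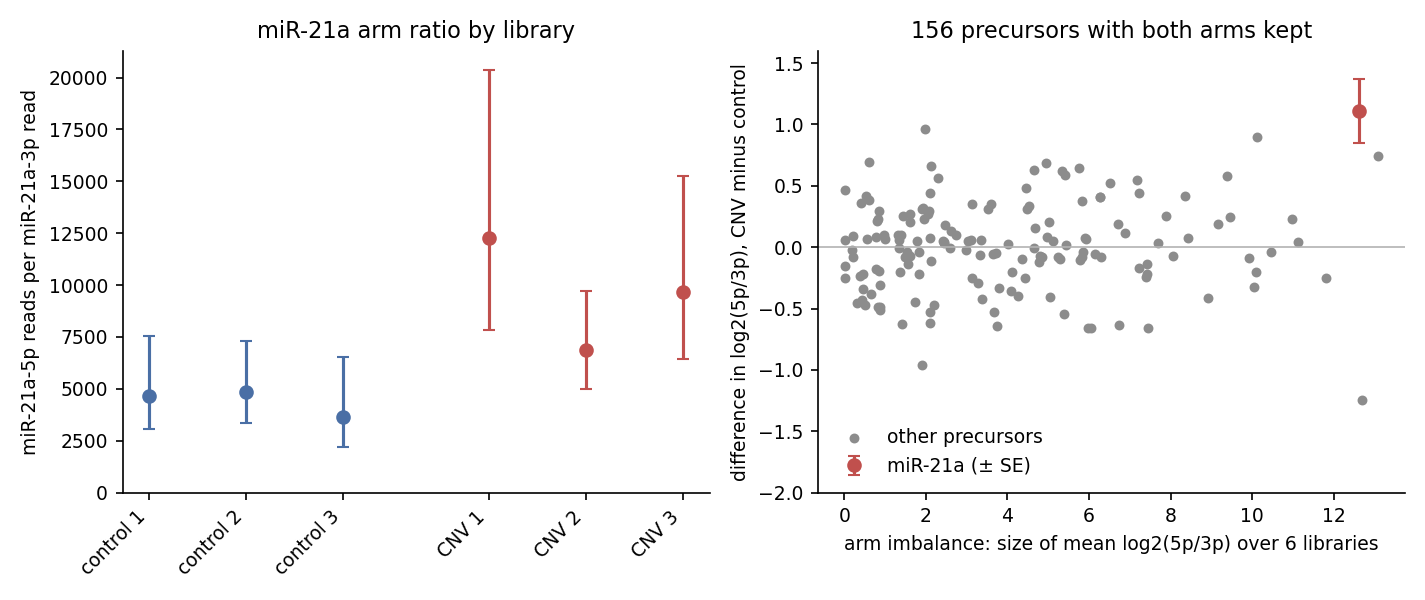
Left, reads of miR-21a-5p per read of miR-21a-3p in each library, with 95% exact binomial intervals, which are wide because the 3p arm had 15 to 37 reads. Right, the difference in log2(5p/3p) between CNV and control for 156 precursors against the size of their mean log2 ratio, where miR-21a (1.11, SE 0.26) is the highest point and lies far to the right among the most uneven precursors.

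The counts of miR-21c were compared with those of the other copies to see whether the names stand in a fixed ratio. As a share of miR-21a-5p, miR-21c was 0.0244%, 0.0244% and 0.0439% in control replicates 1 to 3. In CNV replicates 1 to 3 it was 0.0154%, 0.0162% and 0.0315%. It was highest in replicate 3 of each group, with a 95% Poisson interval of 0.0281% to 0.0653% in control replicate 3 and 0.0245% to 0.0398% in CNV replicate 3. The group means were 0.0309% ± 0.0113 and 0.0210% ± 0.00906 (SD, n = 3), and the groups overlapped.

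Against miR-21b the ratio was nearly even in every library. The table lists 28, 33 and 21 reads of miR-21b in control replicates 1 to 3 and 36, 40 and 63 in CNV replicates 1 to 3, beside 24, 33, 24, 36, 41 and 70 of miR-21c. The part of miR-21c in the sum of both names ran from 46.2% in control replicate 1 to 53.3% in control replicate 3. The 95% exact binomial interval held an even split in each library, for example 43.8% to 61.3% in CNV replicate 3. Over the summed libraries it was 49.7% (41.8% to 57.6%) in control and 51.4% (45.4% to 57.3%) in CNV, with intervals that leave out the spread between libraries. Among all miRNA names, the counts of miR-21b were the nearest to those of miR-21c, with a summed squared difference of square-root counts of 0.445, against 7.83 for the next name, miR-2137. No name had counts identical to those of a member in all 6 libraries. The mean level of miR-21b was 3.83 ± 1.29 CPM in the control libraries and 8.6 ± 1.99 in the CNV libraries (SD, n = 3). The shared run of 11 bases is shorter than the inserts selected, so a read within these mature sequences could match both names only with mismatches. The far more abundant miR-21a-5p shares a run of 15 bases with miR-21c and of 13 bases with miR-21b. How many mismatches were allowed is not given. Whether the same reads, or reads of miR-21a-5p, stand under both names therefore cannot be told.

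**Figure D3:**
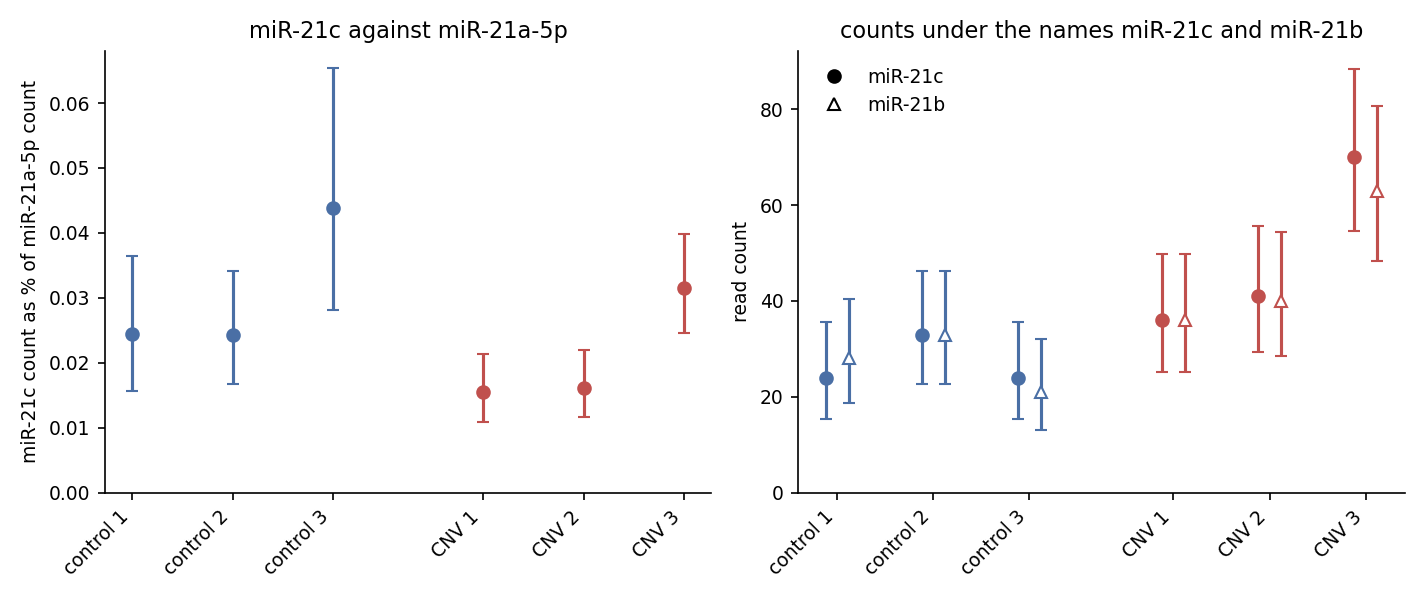
Left, the miR-21c count as a percent of the miR-21a-5p count in each library, with 95% Poisson intervals of the miR-21c count, which varies from 0.0154% to 0.0439%. Right, read counts under the names miR-21c (filled circles) and miR-21b (open triangles) with 95% Poisson intervals, where the 2 names lie side by side in all 6 libraries.

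The miRNAs with the library profile most like that of miR-21a-5p were found among 373 miRNAs with a mean of at least 10 CPM. Each profile was the log2 CPM in the 6 libraries centred on its own mean, and likeness was the root mean square difference in log2 units. A flat profile would be at 0.97. The nearest was miR-10a-5p at 0.35, from a gene in the Hoxb cluster, followed by miR-146b-5p at 0.40 and by miR-34b-5p at 0.45. Next came miR-34c-5p at 0.49, which like miR-34b-5p belongs to a family induced by p53, and the leukocyte miRNA miR-142a-5p at 0.50. Being near in this measure asks for a large difference between the groups, which all 5 had, with log2 fold changes of 1.02 to 1.51. The likeness says nothing of a shared sequence, as the seeds of those with a RefSeq entry show.
mmu-miR-10a-5p: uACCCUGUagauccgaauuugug
mmu-miR-146b-5p: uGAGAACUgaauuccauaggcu
mmu-miR-34b-5p: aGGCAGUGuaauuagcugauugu
mmu-miR-142a-5p: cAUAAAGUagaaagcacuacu
None of these seeds is that of miR-21a-5p. Measured the same way, miR-21c was at 0.53 and miR-21a-3p at 0.63 from miR-21a-5p. Both have means below the minimum of 10 CPM, at 15 to 70 reads per library, so their distances are not compared with those of the ranked miRNAs. From miR-21c, miR-21b was at 0.13. In CNV replicate 3, miR-21a-5p was 0.71 above its own mean, while the 5 nearest miRNAs were between 0.39 above and 0.03 below theirs.

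**Figure D4:**
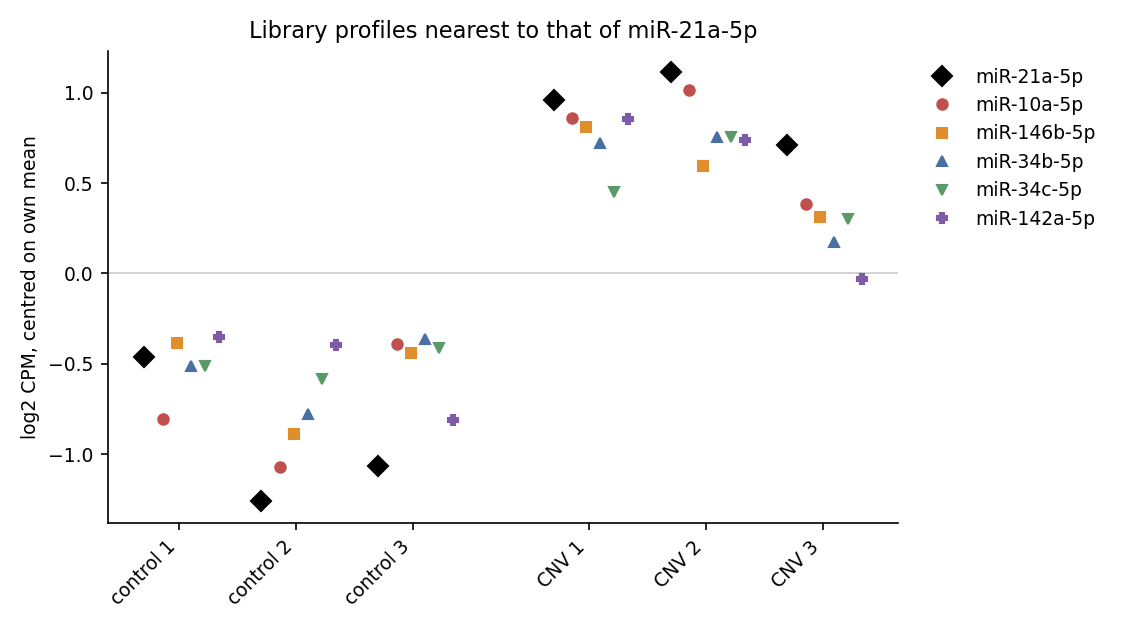
Log2 CPM centred on each miRNA's mean over the 6 libraries, for miR-21a-5p (black diamonds) and the 5 miRNAs with the nearest profiles. The points of all 6 lie below 0 in the control libraries and, apart from miR-142a-5p in CNV replicate 3 (-0.03), above 0 in the CNV libraries.

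Other miRNAs known to respond to injury and inflammation mostly had positive log2 fold changes, but none passed edgeR's test. Of 11 tested, 9 had a positive and 2 a negative log2 fold change, with a median of 0.43 against 0.01 over all 541 miRNAs. Over all 541, 277 were positive and 264 negative. For 5 of the 11 every CNV library lay above every control library, and for 1 below. Over all 541 miRNAs this held for 69 above and 61 below. At an unadjusted p under 0.05, edgeR had 5 higher and 1 lower, where over all 541 miRNAs it had 46 higher (8.5%) and 49 lower (9.06%). DESeq2 called 2 higher, miR-146b-5p and miR-34a-5p, of 17 higher (3.14%) and 6 lower (1.11%) among all miRNAs. Limma-voom called 0 of the list, of 3 higher (0.555%) and 0 lower (0%). The most abundant were miR-181b-5p, a miRNA of lymphocytes and neurons, at 3064 ± 482 and 2150 ± 324 CPM in control and CNV (log2 -0.51), and miR-146a-5p, a brake on NF-κB signalling, at 2546 ± 536 and 3779 ± 989 (log2 0.57; SD, n = 3). The highest log2 fold change of this list was 1.44 for the rare, macrophage-induced miR-147-3p, at 1.14 ± 0.290 and 3.21 ± 0.760 CPM. That of miR-21a-5p was larger, but the group was chosen by it, so nothing is read from this order.

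The levels of markers of other cell types are given beside miR-21a-5p, although edgeR and limma-voom called none of them. Leukocyte miRNAs summed to 473 to 589 CPM in control and 624 to 927 in CNV over 5 members, of which none was at 0 in any library. Their median log2 fold change was 0.72, with 4 positive and 1 negative, and in CNV replicates 1, 2 and 3 the mean log2 level exceeded that of the controls by 0.72, 0.61 and 0.33. Of these, miR-142a-5p was at 210 ± 35 and 442 ± 132 CPM and the lymphocyte miRNA miR-150-5p at 212 ± 26.3 and 152 ± 16.9. Fibroblast and mural cell miRNAs summed to 93210 to 106420 CPM in control and 110237 to 133560 in CNV over 6 members, all detected, with a median of 0.33. The most abundant were miR-143-3p of smooth muscle, with a log2 fold change of 0.29, and miR-199a-3p, with 0.32. Both medians were below the value of miR-21a-5p (1.82), but the group was chosen by that value, so nothing is read from this order.

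All 4 photoreceptor miRNAs and all 6 neuron miRNAs had negative log2 fold changes, with medians of -0.93 and -0.78, as had 264 of all 541 miRNAs. The groups overlapped for 2 of the photoreceptor miRNAs and 1 of the neuron miRNAs. Of all 541 miRNAs, 61 were lower in every CNV library than in any control library. Within the CNV group both lists were lowest in replicate 2 (-1.40 and -1.16). Within the control group both were also lowest in replicate 2 (-0.42 and -0.17). The most abundant were miR-182-5p (log2 -0.92) and miR-183-5p (-0.79) of photoreceptors, and miR-9-5p (-0.60) and miR-124-3p (-1.10) of neurons. The 4 RPE and pigment cell miRNAs had negative values as well, with a median of -0.44, and miR-204-5p was at -0.34 and miR-211-5p at -0.39. With library totals and factors computed without the photoreceptor, neuron and skeletal muscle miRNAs, an alternative chosen after seeing the data, the log2 fold change of miR-21a-5p was 1.76 (SE 0.23).

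The remaining lists had smaller medians. Endothelial miRNAs had a median of -0.18 over 2 members, miR-126a-3p (-0.08) and miR-126a-5p (-0.28). Skeletal muscle miRNAs had a median of 0.17 over 4, with miR-1a-3p at 0.12 and miR-133a-3p at 0.05. Their mean log2 level was lowest in control replicate 1 (-0.98). Erythrocyte miRNAs had a median of 0.30 over 3, with miR-451a at 0.78 and miR-486a-5p at 0.30. Their mean log2 level ranged from 1.09 in CNV replicate 1 to -1.11 in CNV replicate 3. No member of these 8 cell type lists was called by edgeR or limma-voom. At an unadjusted p under 0.05, edgeR had 4 higher and 1 lower leukocyte, 3 higher fibroblast and mural, 4 lower photoreceptor, 5 lower neuron and 2 lower RPE miRNAs, and 0 in the other lists, beside the shares of 8.5% higher and 9.06% lower over all miRNAs. DESeq2 called 3 leukocyte miRNAs and 1 fibroblast miRNA higher, and 1 RPE, 1 photoreceptor and 2 neuron miRNAs lower. Over all 541 miRNAs it called 17 higher (3.14%) and 6 lower (1.11%). The part of these cell types in the difference of miR-21a-5p was not tested.

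**Figure D5:**
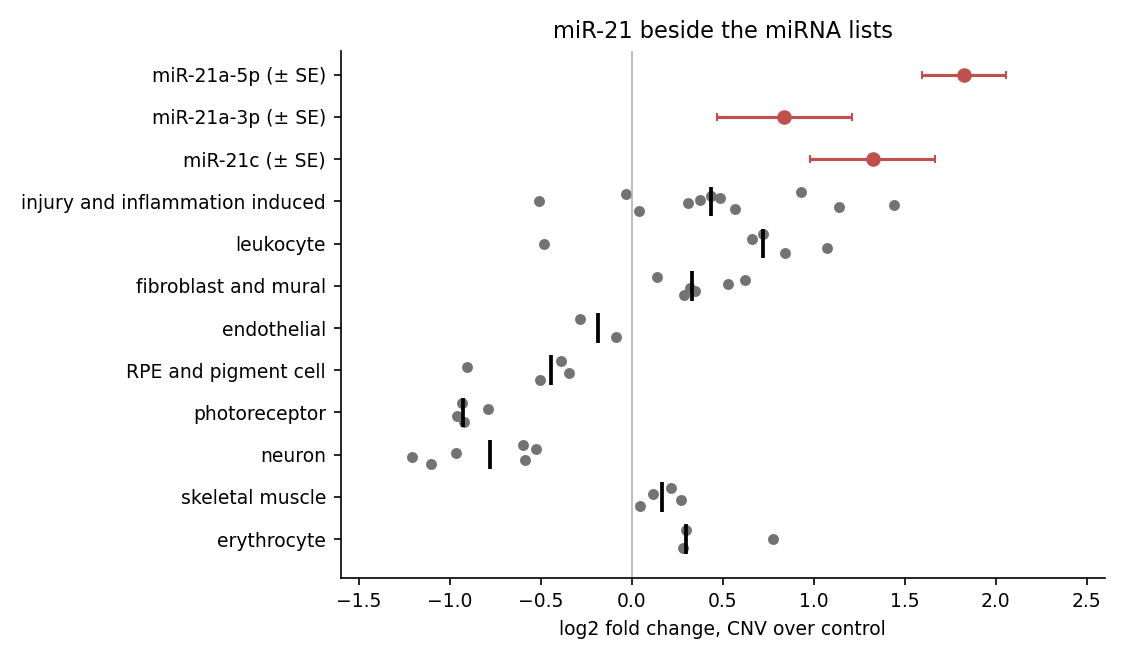
Log2 fold change of CNV over control for miR-21a-5p, miR-21a-3p and miR-21c (red, ± SE) above the members of 9 miRNA lists (grey points, black bar for the median). The value of miR-21a-5p (1.82), by which the group was chosen, lies to the right of all list members. Those of miR-21a-3p (0.84) and miR-21c (1.32) lie within the range of the injury and inflammation list.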

How the data were processed

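The authors' deposited tables give a raw read count per mature miRNA and per tsRNA name for each of 6 libraries. Per the submitters' processing notes Bowtie was used. Its version, its mismatch setting, the build and the handling of reads with several matching names: not given in the sources used here. Reads of that last kind could move counts between miR-21 names. A deposited CPM column rests on different totals for miRNAs and tsRNAs and served only to repeat a ratio of members.

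Groups and replicate numbers came from the sample titles. Libraries held 5057142 to 12839386 counts. In R 4.3.3, rows were kept with filterByExpr of edgeR 4.0.16 (minimum count 10, minimum total 15), scaled with TMM factors and fitted with no covariate by edgeR's quasi-likelihood method, with Benjamini-Hochberg adjustment over 997 small RNAs and a threshold of 0.05. Log2 levels used a prior count of 2. Arm ratios, with 0.5 added to each count, were fitted with limma 3.58.1. Scripts were tested on simulated data. DESeq2 1.42.0 and limma-voom, other scalings and filters, a replicate block and leaving out each library were alternatives.

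Members, lists and tests were chosen with earlier results of these data known. The text names the members, the 5 miRNAs nearest in profile, and of each list the members called or else the 2 most abundant. Others were chosen after their values were seen. Sequences are from RefSeq (GRCm38.p6) and annotation from GENCODE M21.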

Additional observations from a re-analysis of the deposited data

How the results depend on the processing

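The log2 fold change of miR-21a-5p stayed between 1.56 and 2.10 over 16 alternatives, that of miR-21c between 0.92 and 1.5 over 15, that of miR-21a-3p between 0.41 and 1.06 over 15, and the difference in the miR-21a arm ratio between 0.91 and 1.32 over 8. Each moved by less than the SD between libraries. The limits of these ranges came from leaving out a library: 1.56 and 2.10 for miR-21a-5p, 0.92 and 1.5 for miR-21c, 0.41 and 1.06 for miR-21a-3p, and 0.91 and 1.32 for the arm ratio. The rare members were not kept with a minimum mean of 20 CPM, nor was the miR-21a arm ratio with 50 counts in every library. The difference in the miR-21c share of miR-21a-5p was -0.0099 percentage points, and -0.0151 to -0.0034 without a library. Its Poisson intervals give no further value. The number of small RNAs called was less stable. It was 3, and 6 for miRNAs alone, 88 with no filter on low counts, 0 with a minimum mean of 20 CPM, 40 with DESeq2 and 36 with the replicate block. Leaving out a library gave 0 to 24, with 24 without CNV replicate 3 and 0 without either of CNV replicates 1 and 2 or of control replicates 2 and 3. The members were chosen with this comparison known, so nothing is read from their calls. With DESeq2, no filter or the block, miR-21c was called beside miR-21a-5p. In the 4 fits that left out a library and called 0, and with the minimum of 20 CPM, miR-21a-5p was not called. The cause was not tested. For the arm ratios no precursor was called, and 5 were with the replicate block. The block rests on shared numbers only, since same-numbered libraries deviated together at correlations of 0.29, 0.03 and 0.17. Depth limits the 3p arm and miR-21c, with 15 to 70 reads per library.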
